A study of Mus musculus with 12 samples.

Results

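Tumours from mice that received both simulated altitude and IOX2 (group HI) were compared with tumours from mice that received neither (group MC), with 3 tumours in each group. The comparison used 6 of the 12 libraries of the study, and 14793 of the 35434 genes in the count table, those with at least 10 counts in 3 or more of the 6 libraries. All tumours were subcutaneous grafts of 4T1, a mouse mammary carcinoma line that serves as a model of triple-negative breast cancer, in female BALB/c mice aged 6 to 8 weeks, with each tumour taken from a different mouse. MC mice lived at ambient altitude, near 1500 m, and received vehicle. HI mice lived in a hypobaric chamber set to 3500 m and received IOX2, a small-molecule inhibitor of PHD2. The other groups, also 3 tumours each, were MI (ambient altitude, IOX2) and HC (chamber, vehicle). All mice had 3 days to acclimatize before the cells were injected. IOX2 was given into the peritoneum at 10 mg/kg each day, from day 9 after inoculation, for 10 days, and tumours were taken on study day 22. The chamber housed the HC and HI mice alone, so altitude and chamber housing cannot be told apart. The comparison of HI with MC also joins both exposures, so each was read against the single exposures where a test of that difference existed.

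PHD2, the product of Egln1, is an oxygen-dependent enzyme that hydroxylates the hypoxia-inducible factor (HIF) alpha subunits, after which the VHL protein directs them to destruction. When oxygen is low or the enzyme is inhibited, HIFs accumulate and switch on genes for glucose use, new vessels and, in the kidney and liver, erythropoietin, the hormone that drives red-cell production. Young red cells still carry globin RNA, so blood in a tissue piece adds globin reads, and endothelial cells line the vessels that bring it. The study's title concerns ferroptosis, an iron-dependent form of cell death through lipid peroxidation, and its genes are described after those of blood and vessels.

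The 6 libraries held 38939996 to 39762631 counts, and their 20 most abundant genes took 8.34% to 8.9% of counts. An observed 0 is compatible with up to 3 counts, which equalled 0.074 to 0.0782 CPM (counts scaled to library size with TMM factors, the edgeR unit); this limit covers counting error only. Epithelial markers of the line were present in every one of these libraries, with Epcam at 214 to 272 FPKM and Krt8 at 596 to 675 FPKM (a deposited unit that also divides by gene length). Of the receptors that define triple-negative tumours, Pgr was at 0 to 0.0131 FPKM, Esr1 at 1.72 to 3.06 FPKM and Erbb2 at 15.9 to 21.2 FPKM. Over all tested genes, pairs of 1 MC and 1 HI library differed by a root-mean-square log2 distance of 0.426 to 0.758, with a median of 0.501 over 9 pairs. Pairs within MC differed by 0.391 to 0.497 and pairs within HI by 0.473 to 0.607, so the distances between and within groups overlapped.

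HI tumours differed from MC tumours in 8 of 14793 genes, or 0.0541%, in edgeR's quasi-likelihood test at a Benjamini-Hochberg adjusted p under 0.05. Among the 6 genes that rose (0.0406% of those tested) were Hba-a1, Hba-a2, Hbb-bs, Hbb-bt and Alas2, all on a list of red-cell genes. The 2 that fell (0.0135%) were Vash1 and Cd93, both on a list of endothelial markers. Both lists were written with earlier results of these data known, so these memberships are not independent evidence. At an unadjusted p under 0.05 there were 1481 genes, or 10.0% of those tested, 740 of them higher and 741 lower. With 3 tumours a side, an exact permutation test reaches 0.1 at the smallest; the edgeR fit instead pools its estimate of spread over genes. The number called ran from 5, without MC2, MC3 or HI1, to 22, without HI3, and DESeq2 called 140, or 0.947%, with 0.480% higher and 0.467% lower.

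**Figure D1:**
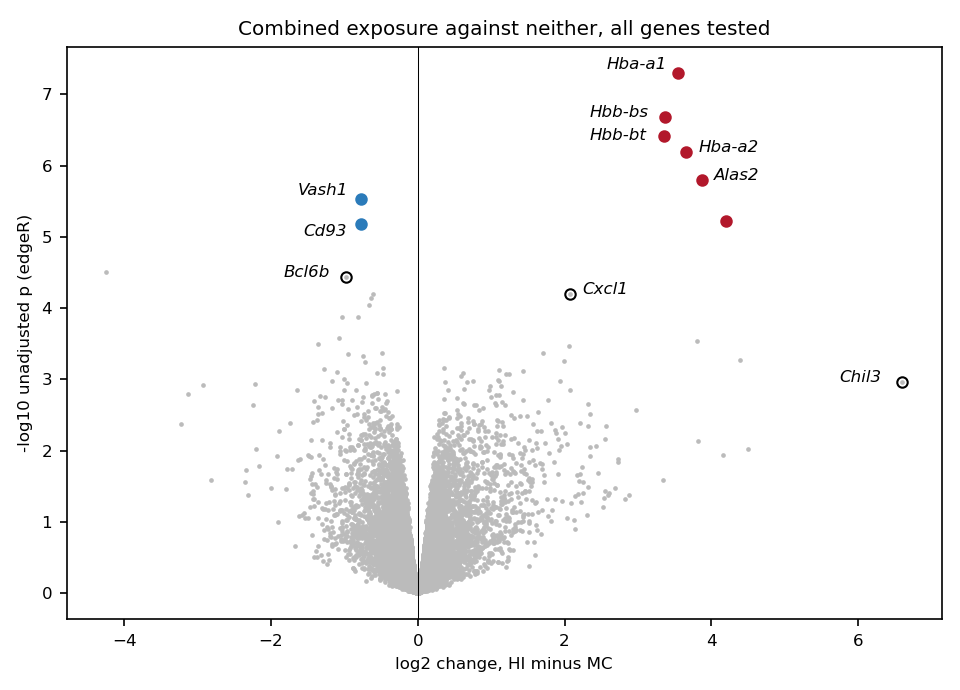
Each point is 1 of the 14793 genes tested, with the log2 change from MC to HI across and −log10 of the unadjusted edgeR p upward. Red points are the 6 genes that rose, blue points the 2 that fell, and open circles mark Cxcl1, Bcl6b and Chil3, which did not pass the adjusted threshold.

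The genes for the alpha chains of adult haemoglobin, Hba-a1 and Hba-a2, rose more than 10-fold. Hba-a1 stood at 4.96, 5.14 and 5.12 CPM in MC1 to MC3 and at 81.2, 53.0 and 43.5 CPM in HI1 to HI3. Its lowest HI tumour was far above its highest MC tumour, and the fitted change was 3.54 on the log2 scale (SE 0.284, edgeR adjusted p = 0.000744), or 11.7-fold. Hba-a2 stood at 1.16, 0.604 and 1.50 CPM in MC and at 18.6, 11.4 and 11.2 CPM in HI, a log2 change of 3.66 (SE 0.373, edgeR adjusted p = 0.00237).

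The genes for the beta chains, Hbb-bs and Hbb-bt, rose by a like amount. Hbb-bs, the most abundant of the globin genes here, stood at 11.3, 11.3 and 10.9 CPM in MC and at 167.6, 92.4 and 85.2 CPM in HI, a log2 change of 3.36 (SE 0.309, edgeR adjusted p = 0.00156). Hbb-bt stood at 2.21, 1.89 and 1.40 CPM in MC and at 25.8, 15.6 and 15.1 CPM in HI, a log2 change of 3.36 (SE 0.326, edgeR adjusted p = 0.00189). For both genes HI1 was the highest tumour and the groups did not overlap. The alpha genes are near-identical copies of each other, and so in part are the beta genes, so how the authors' counting split reads between them is uncertain; the members of a pair are not independent evidence. Globin reads made up 0.00188% to 0.00201% of counts in MC and 0.0158% to 0.0285% in HI.

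Alas2, the red-cell form of the enzyme that starts haem synthesis, is not a globin and shares no reads with the 4 genes above. It stood at 1.33, 0.756 and 0.837 CPM in MC and at 21.7, 10.6 and 10.6 CPM in HI, a log2 change of 3.87 (SE 0.431, edgeR adjusted p = 0.00467). The groups were fully separate, with HI1 again highest. The call was lost without MC2 (adjusted p = 0.0576), without MC3 (adjusted p = 0.0635) and with limma-voom (adjusted p = 0.0528), while the log2 change in these 3 settings stayed between 3.71 and 3.80. Over all 23 alternatives the adjusted p of Alas2 ran from 2.96e-18 to 0.0635, and the 4 globin genes were called in each of them.

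**Figure D2:**
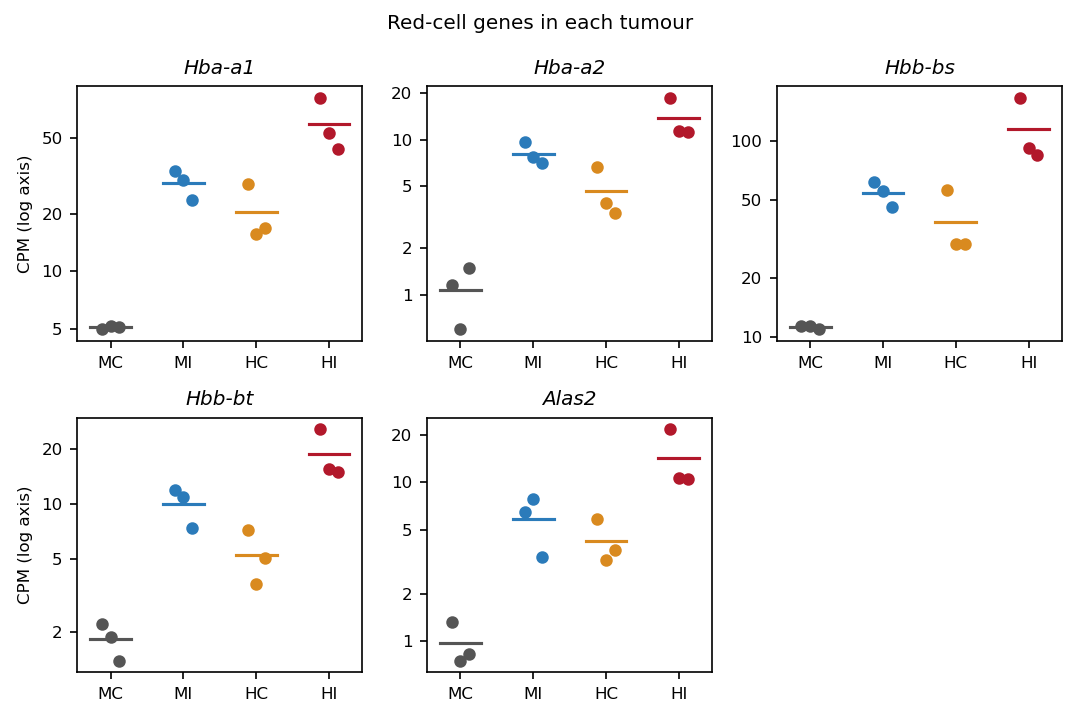
Each panel shows 1 red-cell gene, with CPM on a log axis upward and the 4 groups across; points are tumours and lines are group means (n = 3). In every panel the 3 HI tumours lie above all tumours of MC, HC and MI, and HI1 is the highest.

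The rest of the red-cell list was at low levels. Of 16 genes listed, 10 passed the filter on counts, 6 of them were called and their median log2 change was 3.45, beside -0.01 over all genes tested; since a gene that passed through its HI counts alone had to differ, this median does not speak for the list. Slc4a1, the anion exchanger of the red-cell membrane, had 3, 3 and 1 counts in MC and 108, 25 and 19 in HI, a log2 change of 4.39 with a wide error (SE 0.923, edgeR adjusted p = 0.313). Ahsp, a chaperone of free alpha globin, was not tested and had no counts in MC, against 4, 5 and 1 in HI. The red-cell transcription factor genes Gata1 (14, 6 and 4 counts in MC; 8, 0 and 1 in HI) and Klf1 (5, 9 and 2 in MC; 3, 12 and 5 in HI) did not show that pattern. Tal1, a transcription factor shared with endothelial cells, had a log2 change of -0.75 (edgeR adjusted p = 0.49), and Ermap, an erythroid membrane protein, one of -0.73 (edgeR adjusted p = 0.49). In bulk tissue, more cells of a type and more RNA per cell cannot be told apart, here or for any list below.

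The regulatory sequence just upstream of these genes is shown because the genes moved together and because red-cell promoters are known for GATA sites and CACCC boxes, where GATA1 and KLF1 bind. The windows are the 150 bases before the annotated start, 5′ to 3′ on the gene's strand, from RefSeq on GRCm38.p6, an older build than the GRCm39 named for the data. Capitals mark the GATA motif AGATAA, its variant with a first letter T (TGATAA) or the CACCC box, and a match on the other strand appears as its reverse complement; these 3 motifs were chosen after the gene values were seen.
Hba-a1, chr11:32283522-32283671, plus strand: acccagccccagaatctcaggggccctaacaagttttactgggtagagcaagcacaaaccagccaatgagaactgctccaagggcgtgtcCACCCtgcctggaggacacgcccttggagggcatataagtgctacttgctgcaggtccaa
Hbb-bs, chr7:103827929-103828078, minus strand: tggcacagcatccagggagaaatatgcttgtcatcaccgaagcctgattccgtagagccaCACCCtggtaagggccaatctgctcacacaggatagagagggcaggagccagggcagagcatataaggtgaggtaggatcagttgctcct
Hbb-bt, chr7:103813924-103814073, minus strand: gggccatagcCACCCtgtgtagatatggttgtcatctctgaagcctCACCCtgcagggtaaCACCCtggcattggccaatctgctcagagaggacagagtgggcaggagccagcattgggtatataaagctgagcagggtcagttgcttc
Alas2, chrX:150547267-150547416, plus strand: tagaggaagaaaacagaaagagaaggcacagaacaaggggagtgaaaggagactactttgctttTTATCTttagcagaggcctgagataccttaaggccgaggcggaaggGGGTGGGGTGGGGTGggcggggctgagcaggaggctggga
The promoter of Hba-a2 (chr11:32296342-32296491) was identical to that of Hba-a1 over 247 aligned bases, and those of Hbb-bs and Hbb-bt were identical at 185 of 239 aligned bases (77.4%). CACCC was present in each window printed. It was present in 52% of all 32851 promoters in the table. All shares given here are for the 250 bases before the start, a longer stretch than the 150 bases printed. AGATAA was present in 9.99% of all promoters, among them Alas2 and Hbb-bs, and TGATAA in 7.94%, among them Hba-a1 and Hba-a2; of these matches only that of Alas2, 86 bases before the start, lies in a window printed. The core of the HIF-binding element, ACGTG, occurs in 16.6% of all promoters and in 1 of the 9 named genes with a promoter in the table, Cxcl1. The longer palindrome CACGTG, the E-box that contains it, occurs in 6.02% of all promoters and in none of the 9.

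Each single exposure also had higher globin levels than MC, and these 3 comparisons share the MC tumours. Mean Hba-a1 was 5.07 ± 0.10 CPM in MC, 20.4 CPM in HC, 29.0 CPM in MI and 59.2 ± 19.6 CPM in HI (SD, n = 3 each). The log2 change in Hba-a1 was 2.00 for HC against MC (edgeR adjusted p = 0.165) and 2.51 for MI against MC (edgeR adjusted p = 0.0194). For Hbb-bs the means were 11.2 CPM in MC, 38.6 CPM in HC, 54.6 CPM in MI and 115.1 CPM in HI. All 4 globin genes were called in MI against MC, and none was called in HC against MC.

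The 3 HI tumours lay above every HC and MI tumour for Hba-a1, Hba-a2, Hbb-bs, Hbb-bt and Alas2, yet the direct tests did not pass. HI exceeded HC in Hba-a1 by 1.54 on the log2 scale (SE 0.259, edgeR adjusted p = 0.587) and in Hbb-bt by 1.83 (SE 0.302, edgeR adjusted p = 0.587). That was the smallest adjusted p of any gene in this comparison. Unadjusted, the edgeR p was 7.94e-05 for Hba-a1 and 7.05e-05 for Hbb-bt, and 4.91% of all genes had one under 0.05. HI exceeded MI in Hba-a1 by 1.03 (SE 0.255, edgeR adjusted p = 0.183) and in Alas2 by 1.27 (SE 0.378, edgeR adjusted p = 0.219). Here the unadjusted edgeR p was 0.00179 for Hba-a1 and 0.0061 for Alas2, and 15.3% of all genes had one under 0.05. The interaction is the combined change minus the sum of both single changes on the log2 scale. It was -0.97 for Hba-a1 (SE 0.367), -1.33 for Hba-a2 (SE 0.481), -0.71 for Hbb-bs (SE 0.400), -0.63 for Hbb-bt (SE 0.425) and -0.87 for Alas2 (SE 0.551). All were below 0 and none passed (edgeR adjusted p from 0.607 to 0.652). Before adjustment the edgeR p was 0.0219 for Hba-a1 and 0.0176 for Hba-a2, and 8.23% of all genes had one under 0.05. So for these genes the combined exposure had the highest level, and a difference from the sum of the single log2 changes was not established.

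**Figure D3:**
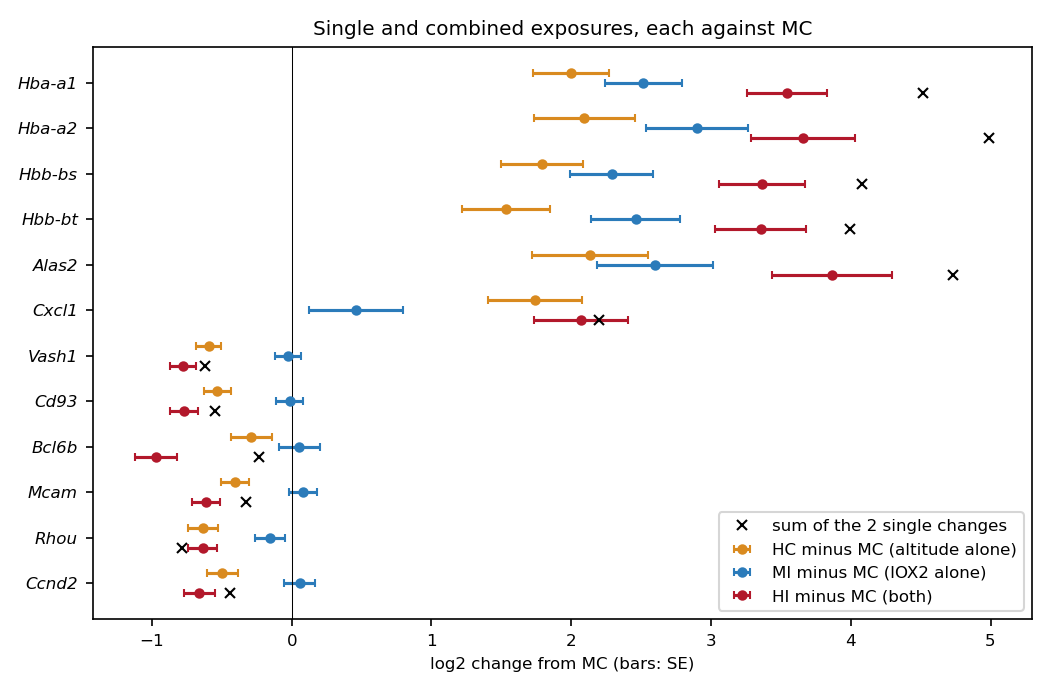
Log2 change from MC (across) for 12 named genes under altitude alone, IOX2 alone and both, with bars of 1 SE, and crosses at the sum of both single changes. For the 5 red-cell genes the combined change exceeds each single change and lies below the cross; for Vash1 and Cd93 the IOX2 change alone is near 0.

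Vash1 and Cd93, both typical of endothelial cells, stood in HI at 0.583 and 0.587 times their MC level. Vash1 encodes vasohibin-1, a secreted protein that restrains vessel growth and removes tyrosine from tubulin. It stood at 32.9, 32.3 and 37.2 CPM in MC and at 19.4, 19.4 and 20.9 CPM in HI (log2 change -0.78, SE 0.0922, edgeR adjusted p = 0.00719). Cd93, a transmembrane lectin of endothelial and myeloid cells, stood at 101.9, 98.1 and 100.7 CPM in MC and at 56.4, 62.0 and 58.0 CPM in HI (log2 change -0.77, SE 0.0989, edgeR adjusted p = 0.0121). Both genes fell, and each group was tight and the groups were far apart. Both calls were lost without HI1 (adjusted p = 0.0542 for Vash1 and 0.123 for Cd93) and without HI2 (0.0546 for each), with log2 changes between -0.81 and -0.74. The Cd93 call was also lost without MC1, MC2 or MC3 (adjusted p = 0.0924, 0.0722 and 0.0971), and the Vash1 call on log2(FPKM + 1) values (adjusted p = 0.087) and log2(FPKM + 0.1) values (adjusted p = 0.0681). The lowest adjusted p over the alternatives was 1.31e-11 for Vash1 and 5.4e-09 for Cd93.

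Both genes were lower in the chamber groups and not with IOX2 alone. Vash1 stood at 22.1, 23.6 and 22.1 CPM in HC and at 37.2, 31.2 and 32.3 CPM in MI; Cd93 stood at 71.5, 63.5 and 73.1 CPM in HC and at 110.6, 84.9 and 102.3 CPM in MI. The 3 HI tumours were below all HC tumours and all MI tumours in each gene. HI minus MI was -0.75 for Vash1 (SE 0.0923) and -0.76 for Cd93 (SE 0.0989), both at an edgeR adjusted p of 0.0582, just outside the threshold. HI minus HC was -0.18 for Vash1 and -0.24 for Cd93 (edgeR adjusted p = 0.959 for each). HC against MC gave -0.59 for Vash1 and -0.53 for Cd93, neither of them called (edgeR adjusted p = 0.165 for each).

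Below these, the next 4 genes in order of p on the falling side were taken from those whose groups did not overlap and whose MC mean was at least 5 CPM. None of them passed. Of the 4, 2 were on the endothelial list, which was written with earlier results of these data known. Bcl6b, a transcriptional repressor found in endothelium, stood at 11.0, 10.3 and 12.1 CPM in MC and at 5.34, 5.97 and 5.69 CPM in HI (log2 change -0.97, SE 0.149, edgeR adjusted p = 0.054). In the single exposures it stood at -0.29 in HC and 0.05 in MI, and its interaction was -0.74 (SE 0.209, edgeR adjusted p = 0.607). Mcam, the adhesion molecule CD146 of endothelial and mural cells, was at 119.0, 114.6 and 119.6 CPM in MC and at 69.1, 82.9 and 78.6 CPM in HI (log2 change -0.61, edgeR adjusted p = 0.0791). Rhou, a small GTPase, had a log2 change of -0.64 (edgeR adjusted p = 0.0825) and Ccnd2, the cell-cycle protein cyclin D2, one of -0.66 (edgeR adjusted p = 0.0945). Over 23 alternative settings Bcl6b was called in 3 (adjusted p from 1.24e-06 to 0.341), Mcam in 2 (1.07e-05 to 0.419), Rhou in 3 (3.73e-05 to 0.419) and Ccnd2 in 2 (3.61e-05 to 0.419).

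**Figure D4:**
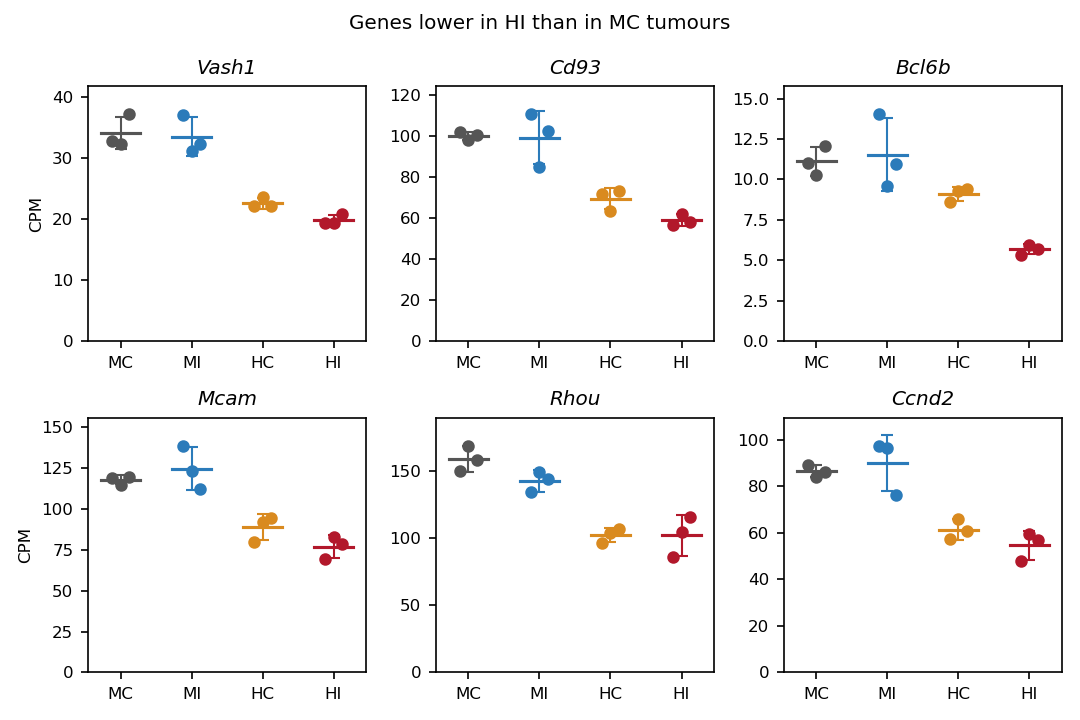
CPM (upward, from 0) of 6 genes lower in HI, by group, those with the smallest p among genes whose groups do not overlap and whose MC mean is at least 5 CPM; points are tumours, lines are means and bars are SD (n = 3). Vash1 and Cd93 passed the threshold and the other 4 did not; the HC means lie below the MC means in all 6 panels.

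Across the endothelial list most members lay on the same side, although edgeR called 2 (Vash1 and Cd93) and DESeq2 called 6. Of 29 markers tested, 26 had a negative log2 change, with a median of -0.50 against -0.01 for all genes. In 21 of 29 the HI tumours were all below the MC tumours, which was so for 1336 genes or 9.03% of those tested. In 1 they were all above, against 1324 genes or 8.95% of those tested. The 21 include Vash1, Cd93, Bcl6b and Mcam, and the list was written with earlier results of these data known. The defining junction genes, named after their values were seen, lay on the lower side: Cdh5 (VE-cadherin) at 89.7, 97.3 and 89.1 CPM in MC and 57.2, 69.1 and 62.3 CPM in HI, and Cldn5 at 16.9, 20.1 and 25.1 CPM in MC and 12.8, 11.4 and 11.6 CPM in HI. Neither passed the test (edgeR adjusted p = 0.344 and 0.375). Pecam1, the common surface marker of endothelium, differed by -0.28 (edgeR adjusted p = 0.443). Plvap, the protein of endothelial diaphragms, differed by -0.03, and Vwf, the clotting factor that endothelium stores, lay on the other side at 0.66 (edgeR adjusted p = 0.42). The list's summed level was 1304 to 1343 CPM in MC and 1048 to 1082 CPM in HI. Leaving out any 1 of the 6 tumours left the median between -0.52 and -0.43.

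The median of the endothelial list was -0.11 in HC against MC and 0.11 in MI against MC, which share the MC tumours with the combined comparison. The list score, which averages over members the log2 CPM after subtracting the gene's mean in the 12 libraries, was 0.103, 0.071 and 0.0853 in MC1 to MC3 and -0.327, -0.248 and -0.382 in HI1 to HI3. In HC it was 0.154, -0.141 and 0.0555, and in MI 0.444, -0.00473 and 0.189, so the 3 HI tumours had the lowest scores of all 12. The median over members of HI minus HC was -0.35, and no endothelial gene passed that test.

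Genes of vessel sprouting and of Notch signalling, which sets the balance of leading and trailing cells in a new sprout, held no member called by edgeR; DESeq2 called 3 sprouting and 2 Notch genes, all lower. Of 19 sprouting genes tested, 5 were lower and 1 higher without overlap, with a median of -0.09. Of 15 Notch genes, 5 were lower and 2 higher, with a median of -0.16. Over all genes those shares were 9.03% lower and 8.95% higher. At an unadjusted p under 0.05 there were 6 lower and 2 higher sprouting genes, and 4 lower and 2 higher Notch genes. Among all 14793 genes there were 741 lower and 740 higher. Dll4, the Notch ligand of endothelial tip cells, was at 23.2, 23.4 and 23.3 CPM in MC and 14.6, 17.9 and 17.5 CPM in HI (log2 -0.48, edgeR adjusted p = 0.286, and 0.00173 to 0.936 over the alternatives). Hey1, a transcriptional target of Notch, had a log2 change of -1.36 (edgeR adjusted p = 0.246), and Notch4, the endothelial receptor, one of -0.40 (edgeR adjusted p = 0.38). The basement-membrane gene Nid2 was at -0.72 (edgeR adjusted p = 0.318) and was called by DESeq2 and by edgeR on the 6 HI and MC libraries alone (adjusted p = 0.00925 and 0.047, and up to 0.936 elsewhere). Dll1, another Notch ligand, lay on the other side at 0.55 (edgeR adjusted p = 0.393). Among 16 genes of mural cells, the pericytes and smooth muscle around vessels, 4 were lower without overlap, the median was -0.24 and Pdgfrb stood at -0.28 (edgeR adjusted p = 0.48).

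The oxygen sensors themselves showed no difference called by edgeR or DESeq2. Of 10 genes of oxygen sensing tested, 1 had an unadjusted p under 0.05, against 10.0% of all genes. Egln1, the gene of the enzyme that IOX2 inhibits and itself a HIF target, stood at 148.1, 171.1 and 161.4 CPM in MC and at 271.4, 191.2 and 179.9 CPM in HI. The groups did not overlap, HI1 was the highest, and the log2 change of 0.42 (SE 0.177) did not pass (edgeR adjusted p = 0.479); without HI1 it was 0.22. Egln2 and Egln3, the other HIF prolyl hydroxylases, had log2 changes of -0.11 and -0.34 (edgeR adjusted p = 0.754 and 0.65). The HIF subunit genes Hif1a and Epas1 stood at -0.09 and 0.07 and Vhl at -0.04, all with edgeR adjusted p of at least 0.951; Epas1 and Vhl changed sign when single tumours were left out. HIF activity is set mainly at the protein level, which these libraries do not measure.

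Targets of HIF leaned upward in HI without a call by edgeR; DESeq2 called none of the glycolysis genes and 1 of the other targets, Tfrc. Of 24 glycolysis genes tested, 20 had a positive log2 change (48.9% of all genes did). In 9, HI was higher without overlap (8.95% of all genes), and 1 had an unadjusted p under 0.05 (10.0% of all genes). The median was 0.26, beside 0.05 in HC and -0.09 in MI against the same MC tumours. Slc2a1, the glucose transporter GLUT1, was at 158.2, 220.9 and 176.3 CPM in MC and at 467.4, 270.4 and 231.3 CPM in HI (log2 0.80, SE 0.299, edgeR adjusted p = 0.42). HI1 was again the highest. Pgk1, a glycolytic enzyme, stood at 0.47 (edgeR adjusted p = 0.504) and Gapdh, another, at 0.38 (edgeR adjusted p = 0.513). Of 34 HIF targets outside glycolysis, 26 were positive, 9 were higher and 2 lower without overlap, and the median was 0.25. In 5 HI was higher at an unadjusted p under 0.05, against 740 of all 14793 genes. Car9, the carbonic anhydrase often used as a marker of tumour hypoxia (named after its values were seen), was at 103.1, 107.0 and 93.3 CPM in MC and at 201.5, 139.2 and 133.5 CPM in HI (log2 0.64, SE 0.283, edgeR adjusted p = 0.485). Cited2, a HIF-induced regulator that limits HIF activity, stood at 0.47 (edgeR adjusted p = 0.42). Without HI1 the glycolysis median was 0.13 and that of the other targets 0.11. The list scores of the groups overlapped, with HI3 below MC2 in glycolysis (0.0516 and 0.0563) and in the other targets (-0.054 and 0.0435).

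Ferroptosis genes held no member called by edgeR in either direction, and DESeq2 called 1 driver, Tfrc. Of 32 drivers tested, 5 were higher and 5 lower without overlap, with a median of 0.02. Of 34 suppressors, 6 were higher and 2 lower, with a median of 0.05. Over all genes those shares were 8.95% higher and 9.03% lower. Before adjustment, a p under 0.05 was seen for 4 higher and 2 lower drivers, and 6 higher and 2 lower suppressors. Among all 14793 genes it was seen for 740 higher and 741 lower. Gpx4, the peroxidase that detoxifies lipid peroxides, was at 225.0, 271.7 and 295.8 CPM in MC and at 249.6, 235.2 and 226.5 CPM in HI (log2 -0.16, edgeR adjusted p = 0.661), with overlapping groups. Slc7a11, which imports cystine for glutathione, ranged from 27.1 to 76.8 CPM in MC and from 46.7 to 48.3 CPM in HI, and its log2 change of -0.11 changed sign without MC3 and in 2 other settings. Acsl4, which makes the lipids that peroxidize, stood at 0.05 (edgeR adjusted p = 0.971), with a sign that turned without MC3 or HI3.

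Some iron and stress genes often read out in ferroptosis studies lay higher in HI, again with HI1 apart. Of 29 iron-handling genes tested, 16 were positive and 13 negative, 6 were higher and 1 lower without overlap, and the median was 0.07. Over all genes 8.95% were higher and 9.03% lower without overlap. Hmox1, haem oxygenase 1, stood at 69.8, 65.7 and 57.4 CPM in MC and at 221.3, 103.4 and 87.9 CPM in HI (log2 1.10, SE 0.336, edgeR adjusted p = 0.375). Tfrc, the transferrin receptor, stood at 82.6, 91.9 and 55.6 CPM in MC and at 243.8, 99.1 and 145.2 CPM in HI (log2 1.08, SE 0.300, edgeR adjusted p = 0.351). Ptgs2, the cyclooxygenase COX-2, stood at 53.0, 68.1 and 42.9 CPM in MC and at 208.1, 75.3 and 86.6 CPM in HI (log2 1.17, SE 0.431, edgeR adjusted p = 0.42). In each of these 3 genes the groups did not overlap, and without HI1 the log2 changes were 0.58 for Hmox1, 0.68 for Tfrc and 0.57 for Ptgs2. DESeq2 called Tfrc (adjusted p = 0.0431), and none of the other alternatives did (adjusted p up to 1). Fth1, the heavy chain of the iron store ferritin, was at 2042, 2275 and 2499 CPM in MC and at 3330, 2722 and 2597 CPM in HI (log2 0.34, edgeR adjusted p = 0.442). Slc40a1, the iron exporter ferroportin, stood at -0.69 with overlapping groups (edgeR adjusted p = 0.415). Among suppressors, Gclm, a subunit of the enzyme that starts glutathione synthesis, stood at 0.59 (edgeR adjusted p = 0.375), and Acsl3, which makes protective monounsaturated acyl-CoA, at -0.48 (edgeR adjusted p = 0.392).

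Inflammatory cytokines and chemokines lay mostly higher in HI, with no gene called by edgeR and 10 called by DESeq2 (9 higher, 1 lower). Of 31 tested, 17 were higher and 1 lower in HI without overlap, against 8.95% and 9.03% of all genes. At an unadjusted p under 0.05, 17 were higher and 2 lower, against 740 and 741 of all 14793 genes. In all, 27 were positive and the median was 0.64. Cxcl1, a chemokine that draws neutrophils, was the rising gene nearest to the threshold after those called, at 8.73, 9.14 and 8.65 CPM in MC and at 55.8, 22.1 and 33.5 CPM in HI. The MC tumours were tight and the HI tumours were spread more widely, with a log2 change of 2.07 (SE 0.339, edgeR adjusted p = 0.0791). It passed in 5 of 23 alternative settings, among them without HC3 (adjusted p = 0.0299) and without HI2 (adjusted p = 0.0305), and not without HI1 (adjusted p = 0.258). Over all 23 its adjusted p ran from 9.8e-07 to 0.517. In the single exposures it stood at 1.74 in HC and 0.46 in MI. Il1a, an alarm cytokine, stood at 18.7, 19.4 and 11.1 CPM in MC and at 116.3, 37.5 and 43.0 CPM in HI (log2 2.00, edgeR adjusted p = 0.313). Csf3, the growth factor of neutrophils, stood at 1.25 and Hbegf, an EGF-receptor ligand, at 0.62 (edgeR adjusted p = 0.333 for each). Il33, an alarmin of barrier and stromal cells, named after its values were seen, lay on the other side at -1.03 (edgeR adjusted p = 0.345).

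The lists of immune cells lay on different sides and held no gene called by edgeR. DESeq2 called 1 neutrophil gene, 3 genes of T and NK cells, 2 macrophage genes and none of dendritic cells. Of 23 neutrophil genes, 13 were higher in HI without overlap (8.95% of all genes were). Another count, at an unadjusted p under 0.05, had 9 higher, against 740 of all 14793 genes, where 741 were lower. The neutrophil median was 0.56, beside 0.92 in HC and 0.52 in MI. S100a8, a calcium-binding protein that neutrophils store, was at 12.0, 16.1 and 15.3 CPM in MC and at 39.9, 36.7 and 37.6 CPM in HI (log2 1.39, SE 0.458, edgeR adjusted p = 0.387). On the 6 HI and MC libraries alone edgeR called it (adjusted p = 0.0118), and over all alternatives its adjusted p ran up to 1. Of 30 genes of T and NK cells, 11 were higher and 2 lower, 10 were higher at an unadjusted p under 0.05, and the median was 0.62, beside 0.14 in HC and 0.76 in MI. The cytotoxic protease gene Gzmb was at 29.0, 29.0 and 17.0 CPM in MC and at 50.02, 64.7 and 51.9 CPM in HI (log2 1.15, edgeR adjusted p = 0.351). Cd8a, the co-receptor of killer T cells, stood at 0.86 (edgeR adjusted p = 0.377) and Ifng, interferon gamma, at 1.14 (edgeR adjusted p = 0.343). In all, 24 were positive and 6 negative, the latter named after their values were seen. Cd4, at -1.15, and Tcf7, at -0.28, were those lower without overlap. Foxp3 stood at -0.76, and the NK receptor genes Ncr1, Klrb1c and Klrk1 at -0.67, -0.47 and -0.20. The summed level of the T and NK genes was 167.4 to 173.1 CPM in MC and 242.4 to 283.2 CPM in HI.

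Macrophage genes went mostly the other way, with 9 of 25 lower and 2 higher without overlap and a median of -0.31. Their list score did not separate the groups, at 0.0283, -0.203 and -0.159 in MC1 to MC3 and -0.0297, -0.0466 and -0.173 in HI1 to HI3. Over all genes 9.03% were lower and 8.95% higher. At an unadjusted p under 0.05, 8 of the 25 were lower and 3 higher, against 741 and 740 of all 14793 genes. The complement genes C1qc, at 336.2, 305.4 and 415.0 CPM in MC and 195.7, 224.0 and 277.4 CPM in HI, and C1qa had log2 changes of -0.60 and -0.55 (edgeR adjusted p = 0.344 and 0.351). Chil3, a chitinase-like protein of activated and immature myeloid cells, was 1 of 9 on the other side: it stood at 0.503, 1.08 and 0.406 CPM in MC and at 155.3, 35.2 and 3.88 CPM in HI. The HI tumours were far apart from each other, and the log2 change of 6.60 (SE 1.52) did not pass (edgeR adjusted p = 0.335). Its level was also high in HC, at 85.7, 36.9 and 73.4 CPM. Of 17 genes of dendritic cells, 15 had a negative log2 change, with 3 lower without overlap, 2 lower at an unadjusted p under 0.05 and a median of -0.50; Itgax, an integrin of dendritic cells and macrophages, stood at -0.53 (edgeR adjusted p = 0.425).

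**Figure D5:**
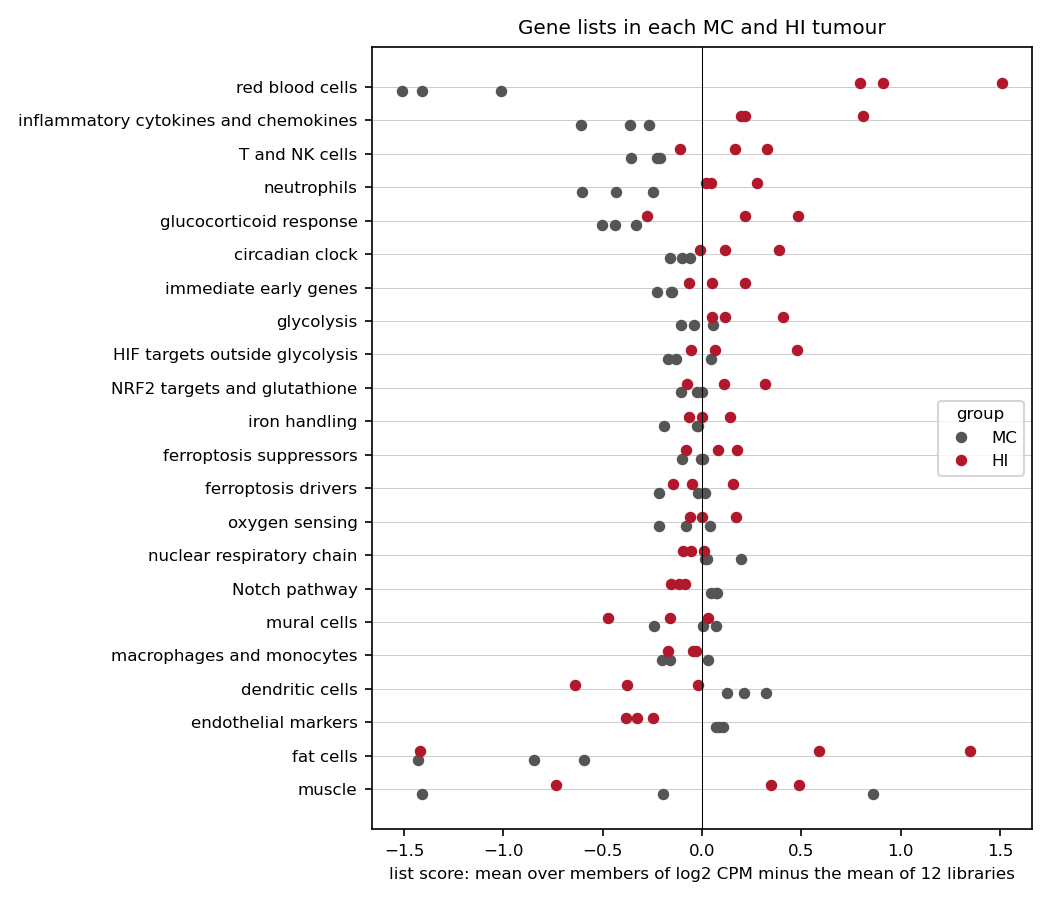
Score of 22 gene lists (log2 CPM centred on the gene's mean of 12 libraries and averaged over members, across) in each MC and HI tumour. Red-cell scores are -1.51 to -1.01 in MC and 0.797 to 1.51 in HI, endothelial scores 0.071 to 0.103 and -0.382 to -0.248. Scores of oxygen sensing, glycolysis, other HIF targets, ferroptosis drivers and suppressors, and iron handling overlap between the groups. So do those of NRF2 targets and glutathione, mural cells, macrophages, fat cells and muscle.

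Genes of the glucocorticoid response and of the circadian clock also leaned upward. All 21 glucocorticoid-response genes tested had a positive log2 change, 5 of them without overlap (8.95% of all genes), with a median of 0.45, beside 0.68 in HC and 0.22 in MI. Hsd11b1, the enzyme that regenerates active glucocorticoid, stood at 4.73, 4.05 and 3.20 CPM in MC and at 14.1, 10.7 and 7.68 CPM in HI (log2 1.44, edgeR adjusted p = 0.333). DESeq2 called it (adjusted p = 0.00472), and over all alternatives its adjusted p ran up to 0.936. Of 19 clock genes, 7 were higher and 1 lower without overlap, against 8.95% and 9.03% of all genes, with a median of 0.37, which was 0.16 without HI1. Per2, a repressor of the clock, was at 7.40, 8.03 and 7.76 CPM in MC and at 17.0, 14.2 and 10.2 CPM in HI (log2 0.83, edgeR adjusted p = 0.351). The hour at which each tumour was taken is not given in the sources used here.

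Genes of growth and energy use differed little. Of 33 proliferation genes 31 were positive, yet 2 were higher without overlap, against 8.95% of all genes. Their median was 0.14, which was close to 0 without MC3. Nuclear genes of the respiratory chain were negative in 33 of 34, with a median of -0.12. In 9 of the 34 HI was lower without overlap, against 9.03% of all genes. At an unadjusted p under 0.05, 6 were lower, against 741 of all 14793 genes. Sdhc, a subunit of succinate dehydrogenase, was at 132.4, 140.7 and 160.6 CPM in MC and 113.5, 123.3 and 124.5 CPM in HI (log2 -0.26, edgeR adjusted p = 0.387). Epithelial tumour genes had a median of 0.05 over 21 genes.

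Over all genes, the direct tests against the single exposures gave no call in edgeR. HI against HC had 727 genes at an unadjusted p under 0.05 (4.91%) and a smallest adjusted p of 0.587, and DESeq2 called 24. HI against MI had 2267 (15.3%) and a smallest adjusted p of 0.0582, and DESeq2 called 376. The interaction had 1218 (8.23%) and a smallest adjusted p of 0.607, and DESeq2 called 30. With limma-voom all 3 gave 0. The count for HI against MI was 561 without MI2, 3 without MI3 and 1 without HC3 or HI3; without MI2 the interaction gave 2.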

How the data were processed

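RNA from 12 tumours was sequenced as read pairs of 150 bases. The submitters' processing notes list, without roles, HISAT2 2.1.0, fastp 0.20.1, R 3.5.1, HTSeq 0.11.2 and DESeq2 1.22.2, and build GRCm39. The sources used here give neither annotation nor strandedness. The table of whole-number counts per gene that the authors deposited was tested as deposited, and the authors' deposited FPKM values served for marker levels and, as log2(FPKM + 1) and log2(FPKM + 0.1) in limma 3.58.1, as alternatives.

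Genes with at least 10 counts in 3 of the 6 HI and MC libraries entered a quasi-likelihood fit in edgeR 4.0.16 (R 4.3.3) of all 12 libraries, with TMM factors and 1 mean per group. Benjamini-Hochberg adjustment ran over all 14793 genes, and genes with an adjusted p under 0.05 were called. Single-exposure differences and the interaction came from the same fit. The test of HI against MC was also run on simulated counts, whose spread was taken from the fit. Outlying tumours were not simulated, so that run cannot show how the test acts with them. Groups come from the sample labels, which state that each tumour came from a separate mouse. CPM values are TMM-scaled, and list scores use a prior count of 2.

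The comparison, the 49 gene lists, the named genes and the alternatives were chosen with earlier results of these data known. Of 1015 listed genes, 957 were tested. Always named were 6 genes of oxygen sensing (Egln1, Egln2, Egln3, Hif1a, Epas1, Vhl) and the iron and ferroptosis genes Acsl4, Gpx4, Slc7a11, Fth1, Tfrc, Hmox1, Slc40a1 and Ptgs2. Further names are the 12 largest rises and falls of called genes whose groups are disjoint and whose higher group averages 5 CPM or more, filled up to 6 in each direction by smallest p, and up to 4 members of each described list by smallest adjusted p. Some listed items are counted but not reported here by name. Predicted genes, clone names, pseudogenes and receptor segments were left out. Alternatives were DESeq2 1.42.0, limma-voom, other scalings and filters, FPKM values, a replicate block and each library left out. Promoters were matched by symbol for 9 of 13 genes in RefSeq's GRCm38.p6 table and aligned with biopython 1.88.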

Additional observations from a re-analysis of the deposited data

How the results depend on the processing

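Leaving out each library in turn gave 5 to 22 genes for HI against MC, 0 in every case for HI against HC, 0 to 561 for HI against MI and 0 to 2 for the interaction. The 5 came without MC2, MC3 or HI1 and the 22 without HI3; fewer samples enter each of these fits. DESeq2 called 140 genes for HI against MC (71 higher, 69 lower, with all 8 of edgeR among them), 24 for HI against HC, 376 for HI against MI and 30 for the interaction, and the cause was not tested. HI against MI also gave 1 call with DESeq2 size factors, 16 with no filter on low counts and 2 with a minimum of 1 CPM. The replicate block gave 11 calls for HI against MC, the 8 of the unblocked fit among them, and 3 for HI against HC; with the block Hsd11b1 was among the added calls (adjusted p = 0.0121). Deviations of same-numbered MC and HI libraries correlated at 0.17, -0.204 and 0.304. MC1 and MC3 correlated best with the HI library of the same number, and MC2 with HI1 (0.259). The numbers were not taken as pairs in the main fit. The other settings gave 7 to 10 calls for HI against MC.

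Signs turned in genes with changes near 0. Leaving out single libraries moved Epas1 from -0.0593 (without HI1) to 0.163, Vhl from -0.142 to 0.0931 (without MC3), Slc7a11 from -0.409 to 0.319 (without MC3) and Acsl4 from -0.0408 (without HI3) to 0.134. Epas1 and Acsl4 were also below 0 without MC3, at -0.0145 and -0.0033, and Slc7a11 was at 0.0202 with limma-voom and 0.0123 on log2(FPKM + 0.1). Of all values of named genes under alternatives, 581 kept direction and side of the threshold, 16 lost a call, 16 gained one and 8 turned. Library totals alone or DESeq2 size factors, a check added after seeing the data, moved no list median described here across 0. Depth limited genes with few counts in MC, such as Slc4a1.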

Other observations

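Some genes outside the naming rule were looked at after their values were seen. Gdf3, a ligand of the TGF-beta family, had 58, 36 and 82 counts in MC and 1, 2 and 6 in HI, and passed the filter through MC alone. Its log2 change of -4.24 (SE 0.642) just missed the threshold in edgeR (adjusted p = 0.0515). DESeq2 called it (adjusted p = 6.11e-06), and so did limma on log2(FPKM + 0.1) values (0.0204). With edgeR it was called on library totals alone (0.0416), with no low-count filter (0.0254), without MI3 (0.0369) and without HI3 (0.041). None of the other alternatives called it. Gdf3 stood at 0.0613, 0.178 and 0.078 CPM in HC and at 0.740, 0.922 and 0.342 CPM in MI, so the 6 chamber tumours lay below the 6 ambient ones. Kit, the stem-cell-factor receptor found on mast cells and some epithelia, had a log2 change of -0.81 (edgeR adjusted p = 0.125).

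Fat-cell genes were positive in 15 of 16 with a median log2 change of 1.74, but none had groups that did not overlap. Their list score was 0.589, 1.35 and -1.42 in HI1 to HI3 and -0.594, -1.43 and -0.845 in MC1 to MC3, so HI3 lay with the lowest MC tumour. HI1 also held skin genes: Krt6a had 219 counts there and none in HI2 or HI3, and Lor had 52, 1 and 0 counts in HI1 to HI3. Any part of such tissue in the values of HI1 was not tested.

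Interferon-response genes were negative in 20 of 28, with 5 lower and none higher without overlap and a median of -0.08. Over all genes 9.03% were lower and 8.95% higher without overlap. Mitochondrially encoded genes had a median of -0.12, which was 0.01 without HI2. B-cell and plasma-cell genes had a median of 0.05 over 5 tested, which turned to -0.39 without HI1.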
